A study of Mus musculus with 10 samples.

Results

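The 30 genes described here encode the steps of glycolysis, the handling of lactate and pyruvate, and a set of oxygen-responsive proteins, and they were chosen by name from a list drawn up with earlier results of these data known. All 30 symbols were found among 54838 gene identifiers. Aldoa has a second identifier (ENSMUSG00000114515) that was at 0 in every library, and the row used is ENSMUSG00000030695. Of the 30 genes, 29 had at least 1 count and 23 had enough counts for the genome-wide test, which covered 7490 genes. The 7 that missed that filter on low counts are Pfkl, Pfkm, Pfkfb4, Aldoc, Bnip3, Vegfa and Hif1a.

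Total RNA was sequenced from type 2 innate lymphoid cells (ILC2), lymphocytes without antigen receptors that make type 2 cytokines, sorted from the lungs of C57BL/6 mice. The mice lacked the transcription factor c-Maf (KO, 5 libraries) or were wild type (WT, 5 libraries). Both groups had papain-induced lung inflammation and were cohoused littermates. The sort took lineage-negative CD90.2-positive cells with or without surface ST2 and KLRG1, and neither the deleted part of Maf nor any Cre line is given in the sources used here. Ages and the time after papain are not given either. The labels do not state in words that the libraries came from different mice. A p-value here therefore weighs a difference against the scatter among libraries of a group, and that scatter may be technical.

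Glycolysis converts glucose to pyruvate in the cytosol. Lactate dehydrogenase then turns pyruvate into lactate, which leaves the cell through monocarboxylate transporters, or pyruvate enters mitochondria unless pyruvate dehydrogenase kinases block its oxidation. Many of these genes are targets of hypoxia-inducible factor (HIF), a pair of proteins whose alpha subunit is marked for destruction by oxygen-dependent prolyl hydroxylases. Activated lymphocytes are known to raise glycolysis.

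The KO libraries held 3620002 to 9867580 counts and the WT libraries 21400938 to 24489987. Maf counts were 0, 0, 0, 108 and 0 in KO libraries 1 to 5 and 1412 to 3832 in WT libraries. In KO library 1 the globin genes of red blood cells took 19% of the counts, and 100 genes took 93.43%. All 13 ILC2 markers had counts in both groups, with summed levels of 4210 to 23300 CPM (counts per 1e+06 after TMM scaling, which adjusts library size) in KO libraries and 4490 to 6980 CPM in WT libraries. These sums hide markers that were nearly empty in single KO libraries. KO library 1 had 8 counts of Thy1, 5 of Ptprc, 1 of Klrg1 and 0 of Il5, beside 660 of Il1rl1, 717 of Il7r and 1562 of Icos. Markers of macrophages and dendritic cells, 10 genes, summed to 0.3 to 37.6 CPM in KO libraries and 0.933 to 1590 CPM in WT libraries. Of these, Cd68, C1qb and Itgax were at 0 in all KO libraries. C1qa was at 0 in every library of both groups, and Marco had 1 count, in WT library 1. Adgre1 and Flt3 went the other way, with mean levels of 7.67 and 0.292 CPM in KO and 0.787 and 0.00898 CPM in WT. Summed red cell markers ran from 190 to 1060000 CPM in KO libraries and from 0.782 to 4.89 CPM in WT libraries, B cell markers from 0 to 264 CPM in KO and 0.0228 to 4.32 CPM in WT, and fibroblast markers from 0 to 3080 CPM in KO and 0 to 0.0224 CPM in WT. Scaled levels are not shares of a library. The TMM factor of KO library 1 was 0.1803, which raises all its scaled levels, so its red cell sum exceeds 1e+06. The part of these other cells in the results was not tested. Fewer cells of a type and less RNA per cell cannot be told apart in such bulk samples.

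Over 3 counts were found for 4 to 12 of the 30 genes in a KO library and for 25 to 28 in a WT library. The mean was 8.2 ± 2.95 genes in KO libraries and 27.2 ± 1.3 in WT libraries (SD, n = 5 each). The 30 genes together took 0.188 ± 0.0588% of all counts in KO libraries and 0.307 ± 0.0465% in WT libraries. The groups did not overlap in the number of genes seen, with the KO libraries also the shallower ones, and they overlapped in the share of counts. Nor did the groups overlap over the whole table. There, 4052 to 7660 genes had any count in a KO library and 10577 to 12744 in a WT library.

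**Figure D1:**
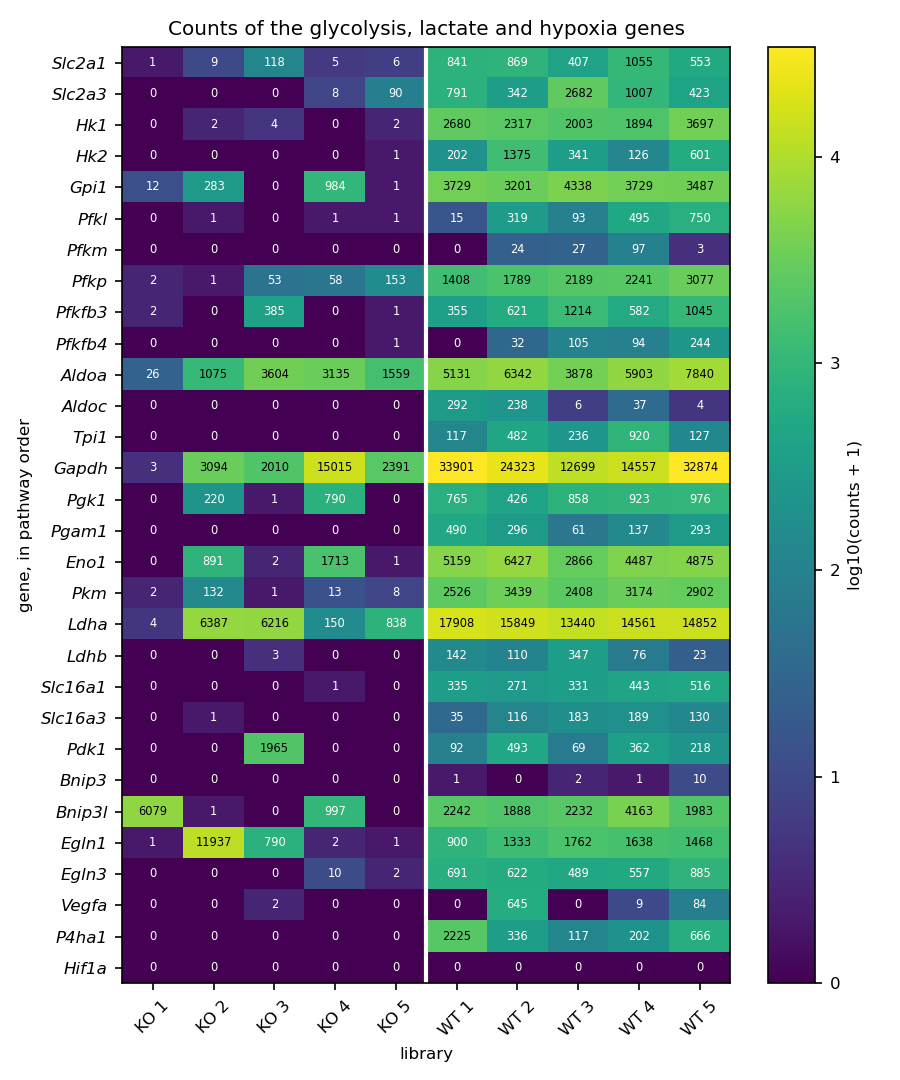
Counts of each of the 30 genes (rows, in pathway order) in KO libraries 1 to 5 and WT libraries 1 to 5 (columns); the printed number is the count and the colour is log10(counts + 1). The WT columns are filled for 25 to 28 genes above 3 counts and the KO columns for 4 to 12, with different genes filled in different KO columns.

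Of the 23 tested genes, 9 fell in KO, 0 rose and 14 did not pass (edgeR's quasi-likelihood test, threshold 0.05 after Benjamini-Hochberg adjustment). The 9 are the hexokinase genes Hk1 and Hk2, the glycolytic enzymes Tpi1 and Pgam1, Ldhb, the lactate transporters Slc16a1 and Slc16a3, the prolyl hydroxylase Egln3, and P4ha1. The largest KO count among these 9 genes was 10, of Egln3 in KO library 4. They therefore passed the filter on low counts, with its minimum of 10, on their WT counts. With no such filter all 9 were still called lower. These calls are not read as a property of the pathway. The 9 made up 39.1% of the tested members. Of all 7490 tested genes, 27.1% were called lower and 1.5% higher with this filter. The difference between these shares was not tested. At an unadjusted p under 0.05, 10 members were lower and 0 higher. DESeq2 called 12 members lower and 0 higher, beside 23.3% and 13.5% of the genes it tested, and limma voom 10 and 0, beside 33.2% and 0.948%. With library size alone 10 were lower and 0 higher, beside 31.1% and 0.654% of all tested genes. RLE factors gave 9 and 0, beside 24.2% and 2.58%, and the fit with no filter on low counts 11 and 0, beside 15.9% and 12.3%. The median log2 fold change (KO minus WT) was −1.82 over the tested members and −0.47 over all tested genes. Both medians moved with the processing: they were −4.17 and −3.58 with limma voom, −0.92 and 0.09 with RLE factors, −4.47 and −1.83 without KO library 3, and −3.49 and −1.48 without KO library 5.

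The share of genes called lower in KO was larger at low WT levels, among these genes and among all tested genes. Of the 6 tested members under 20 CPM in WT (per library size), 5 fell, beside 39.9% of 2977 genes of that level. At 20 to 50 CPM 3 of 7 fell, beside 32.1% of 2046 genes, and at 100 to 200 CPM 1 of 4 fell, beside 4.17% of 719 genes. None of the 6 members at other levels was called: 2 at 50 to 100 CPM (12.7% of genes at that level), 2 at 200 to 500 CPM (0.993%), 1 at 500 to 1000 CPM (0.909%) and 1 above 1000 CPM (0%). In 11 of 23 members at most 3 counts were found in at least 4 KO libraries, against 51.2% of all tested genes, and in 7 of 23 at most 3 counts were found in each of the 5, against 22.3%. Every KO library lay below every WT library for 10 of 23 members, against 28.9% of all tested genes, and at least 1 KO library lay above every WT library for another 10, against 56.5%. Every KO library lay above every WT library for 0 of 23 members, against 0.774%. All KO libraries were at 0 for 3 of 23 members and for 678 of all 7490 tested genes.

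In WT libraries, Gapdh, Ldha, Aldoa and Eno1 had the highest levels per length, in that order, whether counts were divided by exonic length or by the whole gene span. Per exonic kilobase they stood at 144 ± 64.9, 117 ± 23.3, 49.1 ± 7.92 and 21.8 ± 5.06 CPM (SD, n = 5). Gapdh and Ldha did not differ beyond their spread on that scale. By gene span, Gapdh stood at 125 ± 56.4 CPM per kilobase and Ldha at 27.3 ± 5.45, with Aldoa at 25.9 ± 4.18 within Ldha's spread. The median coefficient of variation across WT libraries was 31.1% over the 23 tested members and 55.2% over all tested genes. It was smallest for Pkm (5.49%) and largest among tested members for P4ha1 (135%) and Slc2a3 (105%).

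Glucose uptake was represented by Slc2a1 (GLUT1, a widely expressed carrier) and Slc2a3 (GLUT3, a high-affinity carrier). Slc2a1 had 1, 9, 118, 5 and 6 counts in KO libraries 1 to 5 and 841, 869, 407, 1055 and 553 in WT libraries 1 to 5. KO library 3 held most of the KO counts. Its level was 4.41 ± 6.61 CPM in KO and 18.3 ± 5.7 CPM in WT (log2 fold change −2.04, SE 1.26, edgeR adjusted p = 0.276). With KO library 3 left out it passed, at −3.34 (edgeR adjusted p = 0.0302, with 0.0302 to 0.436 over all alternatives). Only 38.7% of its exonic bases lie outside the span of other annotated genes, so its counts are uncertain.

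Slc2a3 had 0, 0, 0, 8 and 90 counts in KO libraries and 791, 342, 2682, 1007 and 423 in WT libraries. KO library 5 and WT library 3 stood above their groups. Its level was 8.11 ± 17.5 CPM in KO and 28.6 ± 29.9 CPM in WT (log2 fold change −1.82, SE 1.86, edgeR adjusted p = 0.533). With KO library 5 left out it passed, at −6.39 (edgeR adjusted p = 0.0168, with 0.0168 to 0.787 over all alternatives). The 2 carriers had their highest KO counts in different libraries. Slc2a1 gave 118 of the 118 counts of the pair in KO library 3 (100%, 95% Wilson interval 96.8 to 100%) and 6 of 96 in KO library 5 (6.25%, interval 2.9 to 13%), while its share ran from 13.2 to 71.8% in WT libraries. Such intervals cover counting error only.

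Hexokinase traps glucose as glucose 6-phosphate. Hk1 (ENSMUSG00000037012, GRCm38 chromosome 10, 62268855 to 62379908, minus strand) encodes the form bound to mitochondria in most cells. Hk1 had 0, 2, 4, 0 and 2 counts in KO libraries and 2680, 2317, 2003, 1894 and 3697 in WT libraries. It fell to 0.345 ± 0.375 CPM in KO, against 62.95 ± 17.4 CPM in WT (log2 fold change −7.44, SE 1.88, edgeR adjusted p = 0.00504). Every KO library lay below every WT library. Hk1 had the highest WT level of the 9 members that fell, since the other 8 stood under 50 CPM per library size in WT.

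Hk2 (chromosome 6, 82725025 to 82774454, minus strand), the inducible form that HIF raises, had 0, 0, 0, 0 and 1 counts in KO libraries and 202, 1375, 341, 126 and 601 in WT libraries. Per scaled library size, WT exceeded KO by a ratio of 316 (95% counting interval 56.6 to 12500; edgeR adjusted p = 0.00206), and by 195 without WT library 2. No KO library held 20 counts over Hk1 and Hk2, so their balance could not be compared. In WT libraries Hk2 gave 6.24 to 37.2% of the counts of the pair, with WT library 2 the highest.

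Gpi1, which makes fructose 6-phosphate, had 12, 283, 0, 984 and 1 counts in KO libraries and 3729, 3201, 4338, 3729 and 3487 in WT libraries. KO library 4 lay above every WT library after scaling, and the other 4 lay below. The log2 fold change was −1.25 (SE 1.68, edgeR adjusted p = 0.645). It was −2.57 without KO library 4, where it did not pass either.

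Phosphofructokinase commits the sugar to glycolysis and has a liver (Pfkl), a muscle (Pfkm) and a platelet (Pfkp) form. Pfkp was the form with the most counts in every WT library: it had 2, 1, 53, 58 and 153 counts in KO libraries and 1408, 1789, 2189, 2241 and 3077 in WT libraries. Its level was 17 ± 28.2 CPM in KO and 53.1 ± 14.1 CPM in WT (log2 fold change −1.64, SE 1.55, edgeR adjusted p = 0.496). Without KO library 5 it stood at −3.44 and still did not pass (edgeR adjusted p = 0.0829, with 0.0829 to 0.749 over all alternatives). Pfkl had 0, 1, 0, 1 and 1 counts in KO libraries and 15, 319, 93, 495 and 750 in WT libraries, a ratio of 66.5 for WT over KO (95% counting interval 22.7 to 323), and missed the filter for the test. In each of the 10 alternatives that tested Pfkl it was called lower, with adjusted p from 0.00207 to 0.0251. Pfkm had 0 counts in every KO library and 0, 24, 27, 97 and 3 in WT libraries. Pfkp gave 99.2 ± 0.855% of the counts of the 3 forms in 3 KO libraries with at least 20 such counts and 87.4 ± 8.93% in 5 WT libraries (SD). An exact two-sided permutation test gave p = 0.0536 for that difference, with an adjusted p of 0.0804 over the 3 isozyme shares that could be tested. The smallest p it can give is 0.0179.

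Pfkfb3 and Pfkfb4 make and break down fructose 2,6-bisphosphate, the strongest activator of phosphofructokinase, and both are known HIF targets. Pfkfb3 had 2, 0, 385, 0 and 1 counts in KO libraries and 355, 621, 1214, 582 and 1045 in WT libraries. KO library 3, again the library with the Slc2a1 counts, lay above every WT library after scaling. The log2 fold change was −0.80 (SE 1.71, edgeR adjusted p = 0.787). With KO library 3 left out it passed, at −4.88 (edgeR adjusted p = 0.035, with 0.035 to 0.945 over all alternatives). Pfkfb4 had 1 count over all KO libraries and 0, 32, 105, 94 and 244 in WT libraries, and missed the filter. It was called lower without KO library 5 (edgeR adjusted p = 0.0269), without WT library 1 (0.00257) and without KO libraries 1 and 5 (0.0465), and not in the other 6 alternatives that tested it.

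Aldolase splits the 6-carbon sugar. Aldoa, the form of muscle and most proliferating cells, had 26, 1075, 3604, 3135 and 1559 counts in KO libraries and 5131, 6342, 3878, 5903 and 7840 in WT libraries. It was 1 of 2 members with over 3 counts in all KO libraries, which held for 7.06% of all tested genes. Its level was 363.1 ± 263.5 CPM in KO and 142.8 ± 23.1 CPM in WT (log2 fold change 1.35, SE 1.19, edgeR adjusted p = 0.467), with 3 KO libraries above every WT library and KO library 1 below. Only 49.4% of its exonic bases lie outside other gene spans. Aldoc, the brain form, had 0 counts in every KO library and 292, 238, 6, 37 and 4 in WT libraries, which is at least 23.8-fold lower in KO when the KO group as a whole is given 3 counts. Without WT library 1 that bound was 12.9-fold. Aldoc missed the filter, and the 3 alternatives that tested it called it lower: DESeq2 (adjusted p = 0.0327), no filter (0.0214) and KO libraries 1 and 5 left out (0.0372).

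Tpi1 (chromosome 6, 124810586 to 124814296, minus strand) encodes triosephosphate isomerase, which interconverts the products of the split sugar. It had 0 counts in every KO library and 117, 482, 236, 920 and 127 in WT libraries. KO was lower by at least 71.5-fold, with an edgeR adjusted p of 0.00163. Without WT library 4 that bound was 48.4-fold.

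Lower glycolysis began with Gapdh, the oxidizing step and the most counted member. It had 3, 3094, 2010, 15015 and 2391 counts in KO libraries and 33901, 24323, 12699, 14557 and 32874 in WT libraries. KO library 1 was nearly empty for it, and KO libraries 4 and 5 were above every WT library after scaling; KO library 4 is the one with Maf counts. Its level was 786.2 ± 848.6 CPM in KO and 593.3 ± 268.2 CPM in WT (log2 fold change 0.41, SE 1.20, edgeR adjusted p = 0.846). The sign turned with library size alone (−0.80).

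Pgk1, the first enzyme to make ATP, had 0, 220, 1, 790 and 0 counts in KO libraries and 765, 426, 858, 923 and 976 in WT libraries. Eno1, the enolase of most tissues, had 0, 891, 2, 1713 and 1 counts in KO libraries and 5159, 6427, 2866, 4487 and 4875 in WT libraries. Pgk1, Eno1 and Gpi1 were each well counted in KO libraries 2 and 4 and had at most 12 counts in KO libraries 1, 3 and 5. The 12 counts of Gpi1 in shallow KO library 1 were 14.12 CPM after scaling, against 42.45 CPM in KO library 2. These genes were grouped after their values were seen. Neither Pgk1 (log2 fold change 0.55, SE 1.76, edgeR adjusted p = 0.859) nor Eno1 (−0.63, SE 1.73, edgeR adjusted p = 0.834) passed the test. Without KO library 4 Eno1 stood at −1.83 and Pgk1 at −1.25. With library size alone Pgk1 stood at −0.67, and with limma voom Eno1 stood at −5.45 and passed (adjusted p = 0.0214, with 0.0214 to 0.98 over all alternatives).

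Pgam1 (chromosome 19, 41911923 to 41918660, plus strand), the mutase that acts between Pgk1 and Eno1, had 0 counts in every KO library and 490, 296, 61, 137 and 293 in WT libraries. KO was lower by at least 51.7-fold, with an edgeR adjusted p of 0.00163. Without WT library 1 that bound was 36.5-fold.

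Pkm, which encodes the pyruvate kinases of lymphocytes and muscle, varied least among WT libraries. It had 2, 132, 1, 13 and 8 counts in KO libraries and 2526, 3439, 2408, 3174 and 2902 in WT libraries. Every KO library lay below every WT library, at 5.53 ± 8.07 CPM in KO and 71.6 ± 3.93 CPM in WT. The log2 fold change was −3.68 (SE 1.60) and missed the threshold (edgeR adjusted p = 0.104). Without KO library 2 it was −4.89 and passed (adjusted p = 0.0235), as it did with DESeq2 (adjusted p = 0.028), limma voom (0.00929) and library size alone (0.0332). Over all alternatives the adjusted p ran from 0.00929 to 0.196.

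Many glycolytic genes have processed copies elsewhere in the genome, which can take or void reads. Among annotated transcripts, 146 other genes matched at least 50% of the Gapdh coding sequence at 90% identity or more, 8 matched Ldha, 5 Eno1, 4 each Aldoa, Pkm and Bnip3, 3 Pgam1, 2 Pgk1, and 1 each Gpi1, Tpi1, Ldhb and Bnip3l. The copies of Gapdh held 228 counts in KO and 834 in WT, and those of Aldoa 331 in KO and 7 in WT. Levels of these 12 genes are therefore uncertain where reads could not be placed.

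**Figure D2:**
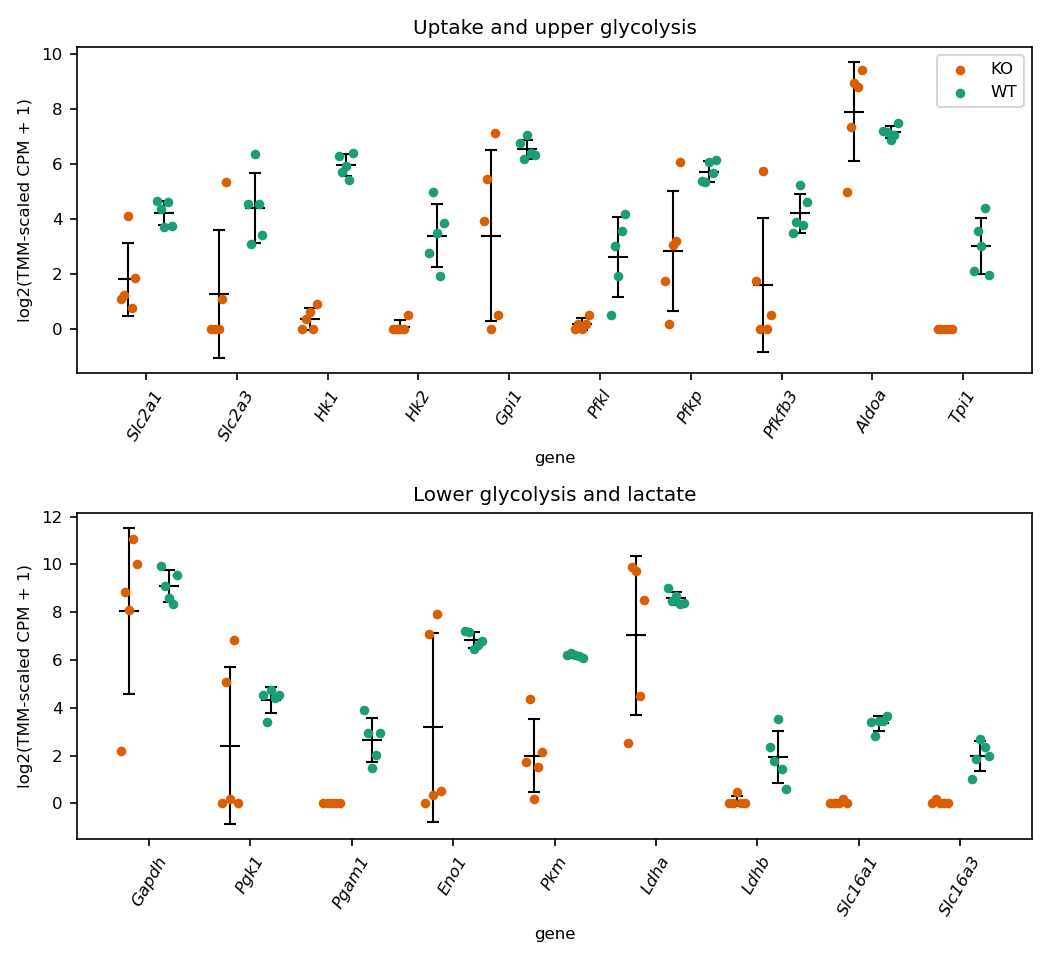
Level of 19 glycolysis and lactate genes as log2(TMM-scaled CPM + 1) in each KO library (orange, left) and WT library (green, right); bars are mean ± SD of the log values, n = 5 each. Hk1, Hk2, Tpi1, Pgam1, Ldhb, Slc16a1 and Slc16a3 lie near 0 in KO, while Aldoa, Gapdh and Ldha are spread around their WT levels.

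Lactate dehydrogenase is built from A chains (Ldha), which favour lactate, and B chains (Ldhb), which favour pyruvate. Ldha (chromosome 7, 46841475 to 46855627, plus strand) had 4, 6387, 6216, 150 and 838 counts in KO libraries and 17908, 15849, 13440, 14561 and 14852 in WT libraries. It had over 3 counts in every library, with KO libraries 2 and 3 above every WT library after scaling and KO libraries 1 and 4 below. Its level was 440.5 ± 449.3 CPM in KO and 386.2 ± 77.2 CPM in WT (log2 fold change 0.19, SE 1.27, edgeR adjusted p = 0.938). The sign turned with library size alone (−0.89).

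Ldhb (chromosome 6, 142490249 to 142507957, minus strand) had 0, 0, 3, 0 and 0 counts in KO libraries and 142, 110, 347, 76 and 23 in WT libraries. The ratio of WT over KO was 27.8 (95% counting interval 9.46 to 135; edgeR adjusted p = 0.00627), and the call was lost with limma voom (adjusted p = 0.0561, with 0.00268 to 0.0561 over all alternatives that tested it). Ldhb missed the filter, and so was not tested, without WT library 1, 2, 3 or 4. Within libraries, Ldhb gave 0.0121 ± 0.0241% of the counts of both chains in 4 KO libraries and 0.933 ± 0.917% in 5 WT libraries (SD). The difference (KO minus WT) was −0.921 percentage points, and −0.525 without WT library 3. Without that library the ratio of WT over KO was 16.7. The 4 KO libraries ran from 0 to 0.0482% and the WT libraries from 0.155 to 2.52%, so the groups did not overlap. In KO library 4, 0 of 150 counts allowed a share of up to 2.5% (Wilson), and in KO library 5, 0 of 838 allowed up to 0.456%. Both limits reach above the lowest WT share. An exact two-sided permutation test gave p = 0.0238, which became 0.0714 over the 3 shares and missed 0.05, and 0.00794 is the smallest p it can give. This share does not depend on how libraries are scaled to each other.

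Slc16a1 (MCT1, chromosome 3, 104638668 to 104658462, plus strand) carries lactate in either direction. It had 0, 0, 0, 1 and 0 counts in KO libraries and 335, 271, 331, 443 and 516 in WT libraries, a ratio of 226 for WT over KO (95% counting interval 40.6 to 8940; edgeR adjusted p = 0.00163). Slc16a3 (MCT4, chromosome 11, 120948480 to 120960868, plus strand), the exporter of strongly glycolytic cells and a HIF target, had 0, 1, 0, 0 and 0 counts in KO libraries and 35, 116, 183, 189 and 130 in WT libraries. Its ratio was 77.9 (95% counting interval 13.9 to 3080; edgeR adjusted p = 0.00163). Neither transporter was above 1 count in any KO library, including KO libraries 2 and 3, which held 6387 and 6216 counts of Ldha. The genes differ in WT level, with both transporters under 20 CPM and Ldha at 500 to 1000 CPM (per library size). Over all tested genes, 78.7% of pairs of a gene and a KO library had at most 3 counts at the transporters' level. At the level of Ldha it was 4.91%.

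Pdk1, the kinase that shuts pyruvate dehydrogenase and a HIF target, had 0, 0, 1965, 0 and 0 counts in KO libraries and 92, 493, 69, 362 and 218 in WT libraries. KO library 3 alone held it, above every WT library. With that library the log2 fold change was 3.23 (SE 2.28, edgeR adjusted p = 0.347). Without it all KO libraries were at 0 and the fitted value, which is then no bound, was −10.14 (edgeR adjusted p = 0.00603, with 0.00603 to 0.549 over all alternatives that tested it).

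Windows around the HIF core motif ACGTG are given for 5 members that fell and, beside them, for Pgk1 and Ldha, which did not pass. Slc16a3 also fell and has the motif, but its window overlaps an exon annotated for that gene and is not shown. Upstream sequences of 28 of the 30 genes were matched by symbol in RefSeq (GRCm38.p6), without Slc2a3 and Bnip3l. The 250 bases before the start site held ACGTG or its reverse complement CACGT in 17 of these 28, against 20% of 17492 protein-coding genes. Among genes with 1 listed start site the motif was found in 11 of 18 members and 17.3% of 14731 protein-coding genes. The members were chosen by name and include many known HIF targets. A higher share of this motif among them follows in part from that choice. The median GC content of these windows was 61% for members and 55.6% for protein-coding genes. Windows with and without the motif were not compared in GC content, and the part of base composition in the motif share was not tested. ACGTG and CACGT overlap wherever CACGTG occurs, the E-box of factors such as MYC, as in the Ldha and Slc16a1 windows. Capitals mark 1 occurrence for each gene, and each line runs 5′ to 3′ on the strand of the gene.
Hk2 (chr6:82774477-82774531, minus strand): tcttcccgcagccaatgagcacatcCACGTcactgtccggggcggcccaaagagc
Pgk1 (chrX:106186925-106186979, plus strand): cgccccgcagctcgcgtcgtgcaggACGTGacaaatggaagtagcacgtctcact
Pgam1 (chr19:41911732-41911786, plus strand): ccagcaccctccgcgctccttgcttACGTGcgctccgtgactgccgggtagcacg
Ldha (chr7:46845635-46845689, plus strand): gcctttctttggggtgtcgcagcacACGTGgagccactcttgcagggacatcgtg
Slc16a1 (chr3:104638440-104638494, plus strand): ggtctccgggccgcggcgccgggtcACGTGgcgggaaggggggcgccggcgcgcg
Egln3 (chr12:54204074-54204124, minus strand): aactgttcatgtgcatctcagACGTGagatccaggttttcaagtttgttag
P4ha1 (chr10:59323255-59323295, plus strand): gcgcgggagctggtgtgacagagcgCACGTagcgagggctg

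The motif stood upstream of members on both sides of the test. Of 13 tested members with it 6 fell, and of 8 tested members without it 3 fell, Hk1, Tpi1 and Ldhb. TGCTGAC, a core of the sites bound by MAF proteins, or its reverse complement GTCAGCA was in 0 of the 28 upstream windows, and in 4.08% of protein-coding genes. These letters describe the windows and say nothing about binding.

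Hif1a, which encodes the alpha subunit of HIF-1, had 0 counts in all 10 libraries (chromosome 12, 73901375 to 73947530, plus strand). All of its exonic bases lie inside the spans of other annotated genes, Gm15283 on the opposite strand and Gm49321 on the same strand. Of 1480 protein-coding genes with no exonic base outside other gene spans, 94.4% were at 0 in every library, against 35.1% of 14131 genes whose exonic bases are all free. Hif1a is therefore treated as not measured. Epas1, which encodes the alpha subunit of HIF-2 and was named after its values were seen, had 0, 106, 772, 1237 and 24 counts in KO libraries and 10278, 9968, 8467, 8467 and 7665 in WT libraries (61.7 ± 76.8 CPM in KO and 226.7 ± 49.1 CPM in WT, edgeR adjusted p = 0.412). Epas1 passed with limma voom alone (log2 fold change −4.76, adjusted p = 0.0213, with 0.0213 to 0.533 over all alternatives).

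Of the prolyl hydroxylases that mark HIF for destruction, Egln3 fell and Egln1 did not pass, and the difference between them was not tested. Egln3 (PHD3, chromosome 12, 54178981 to 54203860, minus strand), itself a HIF target, had 0, 0, 0, 10 and 2 counts in KO libraries and 691, 622, 489, 557 and 885 in WT libraries. It fell to 0.460 ± 0.660 CPM in KO, against 16.2 ± 3.57 CPM in WT (log2 fold change −5.03, SE 1.49, edgeR adjusted p = 0.0149). Egln1 (PHD2), the main oxygen sensor, had 1, 11937, 790, 2 and 1 counts in KO libraries and 900, 1333, 1762, 1638 and 1468 in WT libraries. KO library 2 held 49.7% of its 30-gene counts in Egln1 alone, and KO libraries 2 and 3 lay above every WT library after scaling while the other 3 lay below. The log2 fold change was 3.42 (SE 1.93, edgeR adjusted p = 0.228), against −0.38 without KO library 2.

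Bnip3 and Bnip3l (NIX) are HIF-responsive receptors that send mitochondria to autophagy, and Bnip3l clears them from maturing red blood cells. Bnip3l had 6079, 1, 0, 997 and 0 counts in KO libraries and 2242, 1888, 2232, 4163 and 1983 in WT libraries. In KO library 1 it gave 99.1% of the counts of the 30 genes, and the same library held 902039 globin counts, against 387 to 6475 in the other KO libraries and 34 to 215 in WT libraries. The part of red cell RNA in that value was not tested. The log2 fold change was 4.55 (SE 2.27, edgeR adjusted p = 0.163). It was −0.84 without KO library 1 and 1.37 with library size alone. In KO library 1, Bnip3l stood at 7152 CPM after TMM scaling and at 1278 CPM per library size. Bnip3 had 0 counts in every KO library and 1, 0, 2, 1 and 10 in WT libraries. With at most 10 counts in a library, its level is uncertain. Only 42.1% of its exonic bases lie outside other gene spans. For Slc2a1 it was 38.7%, with 407 to 1055 counts in WT libraries. The part of such overlap in the low counts of Bnip3 was not tested.

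P4ha1 (chromosome 10, 59323296 to 59373304, plus strand) encodes a collagen prolyl hydroxylase subunit and is a HIF target. It had 0 counts in every KO library and 2225, 336, 117, 202 and 666 in WT libraries, with WT library 1 far above the others. With 3 counts given to the KO group, KO was lower by at least 152-fold, with an edgeR adjusted p of 0.0021. Without WT library 1 the bound was 61.6-fold and the adjusted p 0.00127. Vegfa, the vascular growth factor gene, was seen in 3 of 5 WT libraries, with 0, 645, 0, 9 and 84 counts, and had 0, 0, 2, 0 and 0 in KO libraries. It missed the filter, and DESeq2 and the fit with no filter did not call it (adjusted p = 0.167 and 0.0589). Lyz2 and Chil3, the 2 tested of the 10 macrophage and dendritic markers, had at most 9 counts in any KO library. Adgre1, from the same 10, had 30 counts in KO library 1. Lyz2 and Chil3 were lowest among WT libraries in WT library 5, at 31 and 9 counts, and highest in WT library 4, at 11144 and 58165 counts. Cd68, Adgre1 and Itgax were at 0 in WT library 5 and in WT library 1 as well. Of the 9 members that fell, Hk1, Slc16a1 and Egln3 were highest and Tpi1 and Ldhb lowest in WT library 5 after scaling. Tpi1 alone of the 9 was highest in WT library 4. A link between these markers and the members was not tested.

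**Figure D3:**
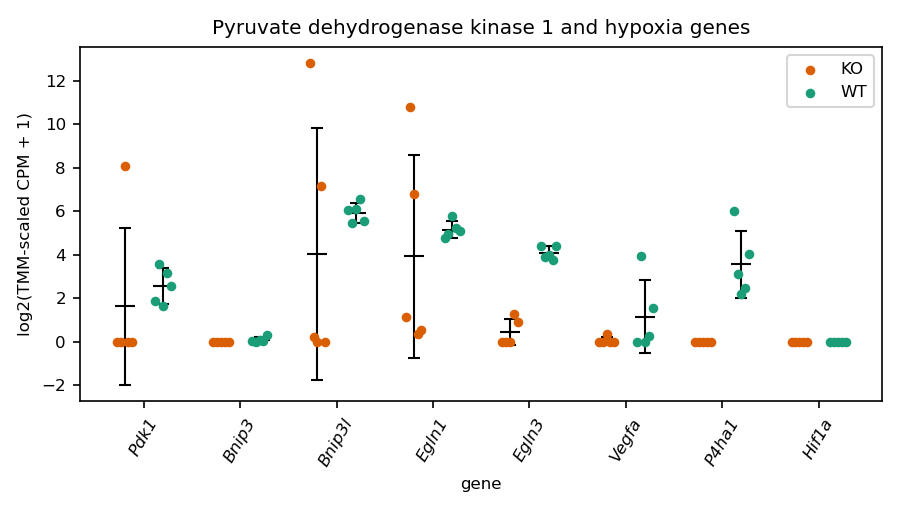
Level of Pdk1 and 7 hypoxia-related genes as log2(TMM-scaled CPM + 1) in each KO library (orange, left) and WT library (green, right); bars are mean ± SD of the log values, n = 5 each. Pdk1 is high in KO library 3 alone (1965 counts), Bnip3l in KO libraries 1 (6079 counts) and 4 (997 counts), and Egln1 is highest in KO library 2 (11937 counts), while P4ha1 is at 0 in KO and Hif1a at 0 in all libraries.

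The leading gene thus differed among the KO libraries. Bnip3l gave 99.1% of the counts of the 30 genes in KO library 1, Egln1 49.7% in KO library 2, Ldha 41% in KO library 3, and Gapdh 65.6% and 47.3% in KO libraries 4 and 5. In WT libraries either Gapdh or Ldha led, at 22.9 to 40.9%, and the 25 genes other than Bnip3l, Egln1, Gapdh, Ldha and Aldoa gave 27.6 to 38.6% of the counts. In KO libraries those 25 genes gave 0.31 to 16.7%. Since Bnip3l and Egln1 were set aside because they led KO libraries 1 and 2, the lower share of the remainder in KO follows in part from that choice and is a description.

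**Figure D4:**
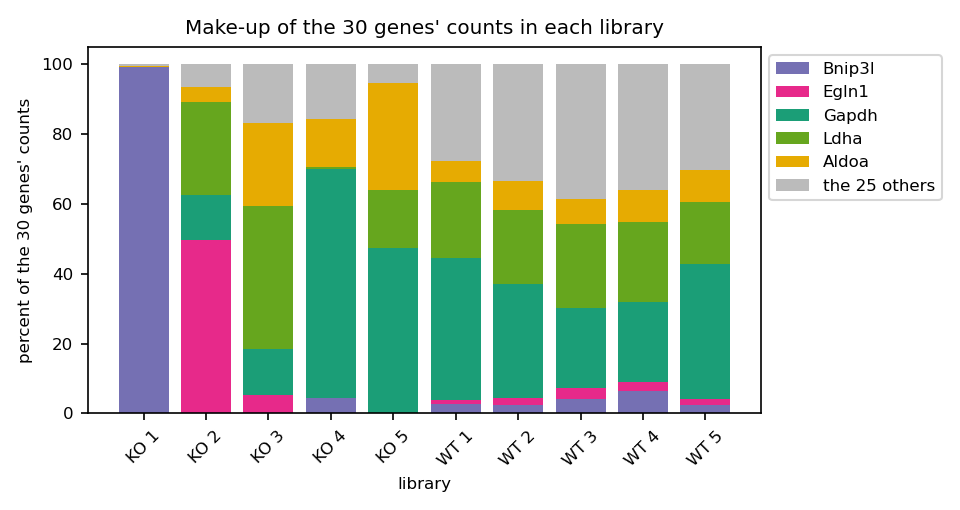
Percent of the counts of the 30 genes that came from Bnip3l, Egln1, Gapdh, Ldha, Aldoa and the 25 others (stacked colours) in each KO and WT library. The 5 genes were chosen after seeing which led each library. The 25 others take 0.31 to 16.7% in KO libraries, whose bars differ from each other, and 27.6 to 38.6% in WT libraries.

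Other genes of these pathways also included some that fell. Among 15 genes of pyruvate entry, 9 were tested and 6 fell, beside the 27.1% of all tested genes. They include Pdha1, a catalytic subunit of pyruvate dehydrogenase (1 count over all KO libraries, edgeR adjusted p = 0.00165), Pdp2, the phosphatase that turns that enzyme on (2 counts in KO, edgeR adjusted p = 0.00163), and the kinase Pdk3 (2 counts in KO, edgeR adjusted p = 0.00165). The median log2 fold change of the list was −7.38. Of 8 pentose phosphate genes, 7 were tested and 4 fell, with a median of −6.27, among them Taldo1, Pgls and Rpia (edgeR adjusted p = 0.00163 each). A kinase and a phosphatase with opposite actions on pyruvate dehydrogenase were thus both among the genes that fell.

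Of 30 isozymes and side branches of glycolysis, 10 were tested, 4 fell and 1 rose. Gpd1l, Adpgk and Slc16a6 fell (edgeR adjusted p = 0.00163, 0.00183 and 0.00274), and so did Slc2a6, named because the list of calls is short. Bpgm, which makes the 2,3-bisphosphoglycerate of red blood cells and was likewise named after its values were seen, rose: it had 3288, 0, 8, 67 and 1 counts in KO libraries and 116 to 423 in WT libraries (log2 fold change 6.75, SE 2.47, edgeR adjusted p = 0.049), most of them in globin-rich KO library 1. Without KO library 1 Bpgm stood at −1.36 (edgeR adjusted p = 0.455), without any one WT library it did not pass, and its adjusted p ran from 0.0185 to 0.823 over all alternatives that gave one. Of 12 oxygen-sensing genes, 10 were in the table, 8 were tested and 3 fell: Hif1an, the asparaginyl hydroxylase of HIF, Egln2 (PHD1) and Arnt2, a HIF partner (edgeR adjusted p = 0.00163, 0.00205 and 0.0493). The call of Arnt2 was lost without KO library 1, 2, 3 or 4, without any one WT library, with RLE factors, with no filter, at a minimum of 50 counts, after thinning and without globin and mitochondrial genes. Its adjusted p ran from 0.00859 to 0.147 over all alternatives.

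Of 25 further hypoxia-inducible genes, 14 were tested, 2 fell and 12 did not pass, with a median log2 fold change of 0.57. The 2 are Insig2, a brake on sterol synthesis, and Hilpda, a lipid droplet protein (edgeR adjusted p = 0.00163 and 0.032). The call of Hilpda was lost without any one WT library and with RLE factors, with an adjusted p of 0.000342 to 0.0711 over all alternatives. Of 10 glycogen genes, 6 were tested and 1 fell, Gyg, the primer of glycogen (edgeR adjusted p = 0.00163). The call rates of these lists thus lay on both sides of the 27.1% over all tested genes, and no test compared them.

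**Figure D5:**
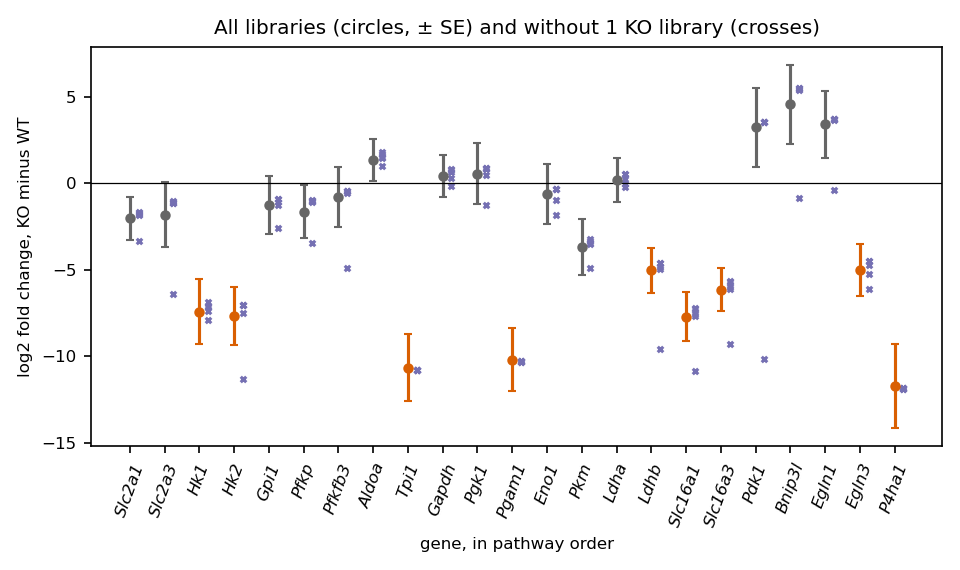
Log2 fold change (KO minus WT) of the 23 tested genes with all libraries (circles, ± SE; orange where the edgeR adjusted p was under 0.05, grey otherwise) and without 1 KO library at a time (crosses). The 9 orange genes stay below 0 throughout, Gapdh, Pgk1, Ldha, Pdk1, Bnip3l and Egln1 change sign when 1 library is left out, and the values of Tpi1, Pgam1 and P4ha1, at 0 in all KO libraries, depend on the fit's prior count and are no bound.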

How the data were processed

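Per the submitters' processing notes, STAR 2.6.0c, SAMtools 1.8 and HTSeq 0.9.1 were used with genome build GRCm38; no source used here states the annotation release, strand setting or feature type. The deposited values are read counts per gene, not normalized, from a stranded total RNA kit per the labels' protocols. Groups came from the genotype labels, and libraries are numbered in accession order, which pairs nothing.

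The test was edgeR 4.0.16 (R 4.3.3): filterByExpr with a minimum of 10 counts, TMM scaling, quasi-likelihood test of KO against WT, Benjamini-Hochberg adjustment over 7490 genes, threshold 0.05. TMM factors were 0.1803 to 0.9276 in KO and 1.462 to 1.908 in WT. The SE is the size of the log2 fold change divided by the square root of F. Alternatives were RLE factors, library size alone, DESeq2 1.42.0, limma voom 3.58.1, no filter, a minimum of 50 counts, counts thinned to the total of the smallest library, removal of globin and mitochondrial genes, and each library left out; leaving out KO libraries 1 and 5 together was added after seeing the data. A gene at 0 in all KO libraries is set against 3 counts over that group (0.124 CPM); with 1 to 3 KO counts the ratio has an exact 95% interval. Counts are reads, not molecules, so intervals and floors cover counting error only. Isozyme shares used libraries with at least 20 counts over the isozymes and an exact permutation test. Annotation was GENCODE M21 (GRCm38), and near copies were sought with BLAST 2.17.0. The fit was tested on simulated data. The members and gene lists were chosen with earlier results of these data known; all members are accounted for, and from other lists up to 3 called genes by smallest p are named.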

Additional observations from a re-analysis of the deposited data

Results flagged for a closer look

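In 12 of 45 sets of 5 libraries, 1 library stood apart from the rest of its group, with a gap to its neighbour above 0.71 of the group's range. That limit would flag about 1 in 20 sets of normally distributed values. These values are skewed, and a set entered if its highest library had over 3 counts, so the number flagged is not read against chance. All 12 were high. In KO, 8 of 16 sets were flagged: Bnip3l in library 1 (7152 CPM), Egln1 (1791 CPM) and Pkm (19.8 CPM) in library 2, Pdk1 (269.1 CPM), Pfkfb3 (52.72 CPM) and Slc2a1 (16.16 CPM) in library 3, and Pfkp (67.03 CPM) and Slc2a3 (39.43 CPM) in library 5. Pdk1, Pfkfb3 and Slc2a1 thus stood out in the same KO library. Pdk1 and Pfkfb3 lay above every WT library there, while Slc2a1 lay below its WT mean of 18.3 CPM. These 3 genes were grouped after their values were seen, and what they share was not tested. In WT, 4 of 29 sets were flagged: P4ha1 in library 1 (63.74 CPM), Vegfa in library 2 (14.42 CPM), Slc2a3 in library 3 (80.55 CPM) and Bnip3 in library 5 (0.2275 CPM, 10 counts).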

How the results depend on the processing

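Of the 9 members that fell, 8 kept call and direction in every alternative that tested them; Ldhb lost its call with limma voom (adjusted p = 0.0561) and without KO libraries 1 and 5 (0.0533), and was not tested without WT library 1, 2, 3 or 4. The count of members that fell ran from 8 to 13 without single libraries, and was 6 of 20 tested both after thinning and at a minimum of 50 counts, where Pgam1, Ldhb and Slc16a3 were no longer tested. No member rose in any alternative run. Over all genes, higher calls numbered 1512 with DESeq2, 2345 with no filter, 193 with RLE factors, 71 with voom, 51 after thinning, 50 at a minimum of 50 counts, 49 with library size alone, 348 without KO libraries 1 and 5 and 82 to 333 without single libraries; lower calls numbered 1303 after thinning, 1173 at a minimum of 50 counts, 3291 without KO libraries 1 and 5 and 1734 to 3350 without single libraries. Over the tested genes the median log2 value was 0.093 with RLE factors, −1.77 with library size alone, −3.58 with voom and 1.24 with DESeq2, over more genes; the members' median ran from −4.80 without KO libraries 1 and 5 to −0.92 with RLE factors.

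Signs turned for genes that did not pass, and the cause was not tested. With library size alone these were Gapdh (−0.80), Ldha (−0.89) and Pgk1 (−0.67). With voom they were Bnip3l (−2.03), Egln1 (−2.85), Gapdh (−0.56), Ldha (−1.34), Pdk1 (−2.79) and Pgk1 (−3.34). Ldha stood at −0.17 with no filter. Without KO libraries 1 and 5, Bnip3l stood at −0.43 and Eno1 at 0.055. Without 1 library, Bnip3l stood at −0.84 (KO 1), Egln1 at −0.38 and Ldha at −0.20 (KO 2), Pdk1 at −10.14 and Ldha at −0.07 (KO 3), and Gapdh at −0.15 and Pgk1 at −1.25 (KO 4). Their highest values without single libraries were 0.83 for Gapdh, 0.865 for Pgk1, 0.558 for Ldha, 3.573 for Pdk1, 5.509 for Bnip3l and 3.724 for Egln1. The share of Slc2a1 in its pair was 4.27 percentage points higher in KO, from −42.6 to 51.1 without single libraries (−4.65 without WT library 3) and 51.1 at a minimum of 100 counts, which left 1 KO library. At that minimum only the Ldhb share (−0.921 points) could be tested, and its adjusted p was 0.0238, since fewer shares were tested. No paired analysis was possible because the labels give no shared replicate numbers.

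Depth limits the KO side: 3 counts are 0.411 to 3.53 CPM in a KO library and 0.0664 to 0.0901 CPM in a WT library, so Slc16a3, at 3.25 CPM in WT, lies under the limit of KO library 1.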
